A study of Mus musculus with 9 samples.

Results

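The genes described here encode the Shank, Homer and Dlg scaffold proteins of the excitatory synapse, namely *Shank1*, *Shank2*, *Shank3*, *Homer1*, *Homer2*, *Homer3*, *Dlg1*, *Dlg2*, *Dlg3* and *Dlg4*. They were chosen by name, as every RefSeq transcript row that the deposited count table held for these 10 genes, summed per gene and also taken row by row. All 10 genes were among the 15267 protein-coding genes that passed the filter on low counts, and their 123 rows were among 68249 rows of protein-coding genes. The libraries came from RNA immunoprecipitation followed by sequencing (RIP-seq), in which an antibody pulls down an RNA-binding protein and the RNA that comes with it is sequenced. The protein was CELF2, in the cytoplasmic fraction of the newborn (P0) mouse cortex, and the study used the assay to look for mRNAs carried by CELF2 that had left the nucleus. There were 3 CELF2 RIP libraries for which 10 µg of an anti-CELF2 antibody raised in rabbit was used, 3 IgG RIP libraries with the same amount of normal rabbit IgG, and 3 input libraries from an aliquot of the lysate taken before the pull-down. Incubation with either antibody lasted 3 hours.

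All 9 libraries shared one genotype, a heterozygous *Celf2* knock-in of the variant p.R493H made by CRISPR/Cas9 editing, which the study used because it shifts the protein to the cytoplasm. No wild-type RIP was analysed here, so none of the values below separates the variant from the normal protein. The antibody was raised against CELF2 and was not described as specific to the variant form. The design gives 3 comparisons: CELF2 RIP against IgG RIP, which asks what the antibody retained beyond beads and unrelated antibody, CELF2 RIP against input, which asks what was retained relative to the mRNA present, and IgG RIP against input, which measures the background of the pull-down. Any pair of these comparisons shares the 3 libraries of one group.

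The postsynaptic density is a protein layer beneath the membrane of excitatory synapses that holds glutamate receptors opposite the release site. Dlg proteins are membrane-associated guanylate kinases that bind receptors and channels through PDZ domains, Shank proteins lie deeper and link that layer to the actin cytoskeleton, and Homer proteins bind Shank and group I metabotropic glutamate receptors and tie both together. mRNAs of several of these scaffolds are known to be carried into dendrites and translated there.

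The table held between 15919600 and 20052716 estimated counts per CELF2 RIP library, between 17365561 and 28773130 per IgG RIP library and between 69125700 and 105116427 per input library. IgG RIP replicates 1 and 2 stood apart, since 43.5% and 41.5% of their counts lay in rows that matched no gene in the RefSeq table, against 21.1% in IgG RIP replicate 3 and between 9.24% and 12.6% in the other 6 libraries. Summed markers of cell types differed between conditions too. Summed over 6 markers, excitatory neuron genes ranged from 1220 to 1510 CPM (counts scaled to a common library size) in CELF2 RIP, from 595 to 750 in IgG RIP and from 706 to 845 in input, while 6 radial glia genes ranged from 125 to 169, from 303 to 348 and from 367 to 385 in the same order. All 12 of these marker genes passed the filter and none was at 0. All 3 conditions came from one kind of lysate, and the part of these markers in the values below was not tested. The sums describe the RNA in each library and give no numbers of cells.

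Levels are given as CPM scaled by the trimmed mean of M-values (TMM), and differences as log2 fold changes with their standard error (SE) from one edgeR quasi-likelihood fit of all 9 libraries. A gene counted as changed at a false discovery rate (FDR) under 0.01 over all 15267 genes. A 2-fold difference in the same direction against both controls was asked in addition where stated. CPM are not divided by transcript length, so levels are compared between libraries and never between genes.

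*Homer2* was the single scaffold gene that rose in CELF2 RIP over both controls, and *Dlg4* was the single one that fell below both by at least 2-fold. Against IgG RIP, 1 of 10 genes was higher (*Homer2*), 3 were lower (*Homer3*, *Dlg2* and *Dlg4*) and 6 passed in neither direction. Of all tested genes, 22.9% were higher and 19.2% lower in that comparison. Against input, 4 of 10 were higher (*Shank2*, *Shank3*, *Homer2* and *Dlg1*) and 2 were lower (*Homer3* and *Dlg4*), beside 26.8% and 20.1% of all genes. The IgG RIP itself differed from input for 4 of 10 genes (*Shank2*, *Shank3*, *Dlg2* and *Dlg3*, all higher), beside 12% of all genes higher and 11.3% lower. No scaffold gene was lower in IgG RIP than in input in edgeR at this FDR or by DESeq2, and 1 (*Dlg4*) was lower at an unadjusted p under 0.05. With 10 genes, 1 gene above and 1 gene below both controls at 2-fold stand beside 7.58% and 9.54% of all genes, so the counts alone do not set these genes apart from the rest.

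**Figure D1:**
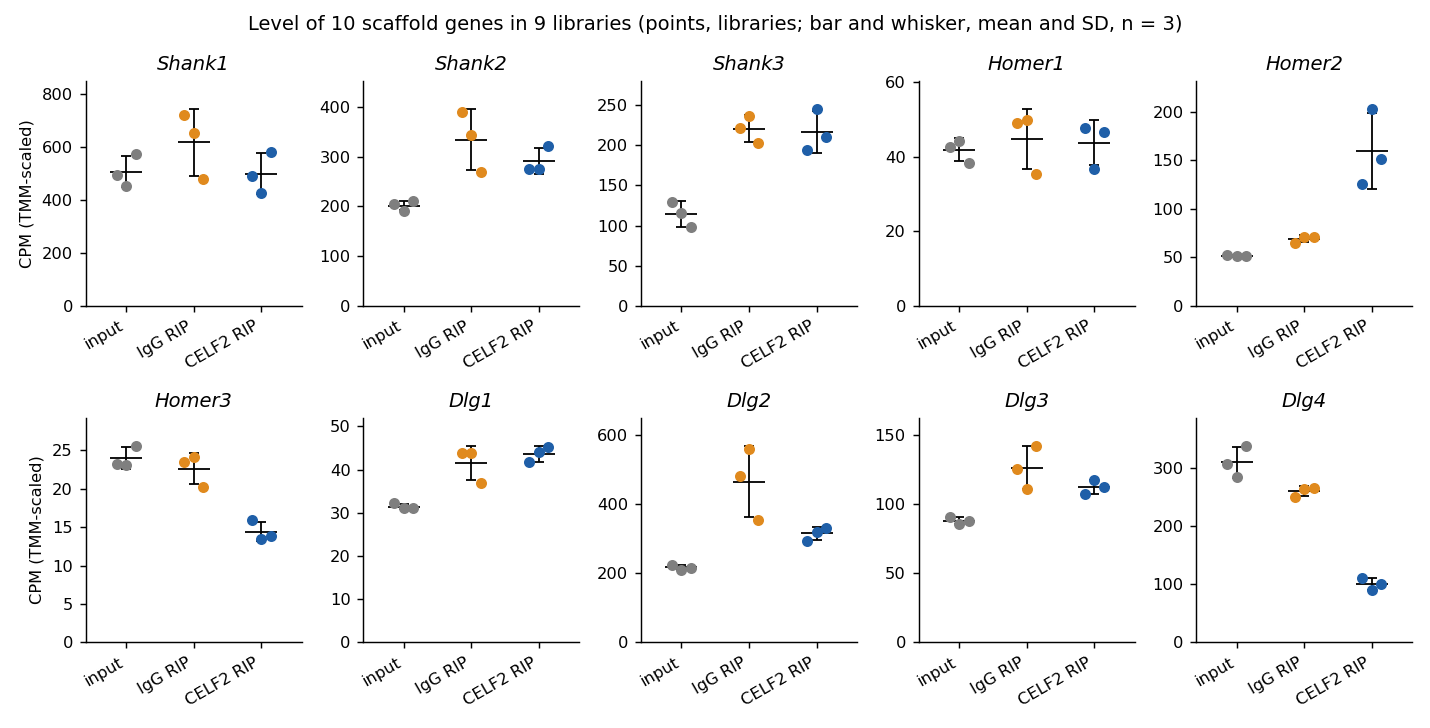
Levels of the 10 scaffold genes in TMM-scaled CPM (vertical axes, each starting at 0) in input, IgG RIP and CELF2 RIP. Points are single libraries, and bars with whiskers are means with SD over 3 libraries. The *Homer2* points of CELF2 RIP all lie above the 6 control points, and those of *Homer3* and *Dlg4* all lie below them. Among all tested genes, 25.2% had all CELF2 RIP points above the controls and 19.9% below.

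Taken as a group, the 10 genes had a median difference (log2) of −0.19 in CELF2 RIP over IgG RIP, beside −0.06 for all genes, and of 0.41 over input, beside 0.19. For IgG RIP over input their median was 0.41 as well, beside 0 for all genes. Without IgG RIP replicates 1 and 2, a comparison chosen after the data were seen, the count of genes lower than IgG RIP was 1 instead of 3, that gene being *Dlg4*. In that fit the single IgG RIP library is assumed to vary like the other groups. The deviations of CELF2 RIP and input libraries with the same number were weakly correlated (under processing). In the edgeR fit with that number as a block, 2 genes were higher than input instead of 4, namely *Shank3* (FDR 0.000476) and *Homer2* (FDR 0.000115). *Shank2* and *Dlg1* had FDR values of 0.0163 and 0.0129 in the blocked edgeR fit.

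Of the 3 families, Homer had the widest range of log2 fold changes in CELF2 RIP over IgG RIP (−0.65 to 1.21) and over input (−0.73 to 1.63), though with curated rows alone the range over IgG RIP was wider in the Dlg family (−1.11 to 2.01). *Homer2* (Gene ID 26557, chromosome 7, 81600481 to 81706925 in GRCm38) encodes a long, coiled-coil Homer that forms multimers. Its level was 126, 203 and 151 CPM in the 3 CELF2 RIP libraries, 65.1, 71.1 and 71.5 in the IgG RIP and 52.9, 51.3 and 51.1 in the input. The lowest CELF2 RIP library was above the highest of the 6 controls, an arrangement found for 25.2% of all genes. The mean was 160 ± 39.2 CPM (SD, n = 3) in CELF2 RIP, 69.2 ± 3.54 in IgG RIP and 51.8 ± 0.966 in input, so the CELF2 RIP libraries also differed most among themselves. *Homer2* rose 2.31-fold over IgG RIP (log2 fold change 1.21, SE 0.16, FDR 0.000132) and 3.09-fold over input (log2 fold change 1.63, SE 0.16, FDR 2.1e-05) in edgeR. These differences lay at the 89.1 and 96.8 percentiles of all tested genes. IgG RIP over input had a log2 fold change of 0.42 (SE 0.16) that did not pass (edgeR FDR 0.0583). CELF2 RIP replicate 2 carried part of the size: without it the log2 fold change over IgG RIP was 1.0, just short of 2-fold, at an edgeR FDR of 0.000145. With scaling by total counts and by the upper quartile it was 0.82 and 0.94, settings that moved the median of all genes by −0.37 and −0.26.

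*Homer3* (chromosome 8, 70282880 to 70294361), whose protein has the same domain plan as Homer2 and is best known from cerebellar Purkinje cells, went the other way. It stood at 15.9, 13.5 and 13.9 CPM in CELF2 RIP, at 23.5, 24.1 and 20.3 in IgG RIP and at 23.2, 23.1 and 25.6 in input. The 3 CELF2 RIP libraries were the lowest of the 9, which was so for 19.9% of all genes. It fell to 0.639 of the IgG RIP level (log2 fold change −0.65, SE 0.14, edgeR FDR 0.00255) and to 0.603 of the input level (log2 fold change −0.73, SE 0.14, edgeR FDR 0.000995). Neither reached 2-fold, and IgG RIP over input was −0.08 (edgeR FDR 0.645). Over IgG RIP the call was lost without IgG RIP replicate 2 (edgeR FDR 0.0102) and without CELF2 RIP replicate 3 (edgeR FDR 0.0121). It held in 8 of 11 other settings. Among the losses were a test against 2-fold (glmTreat) and the fit of only the 6 libraries compared.

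*Homer1* (chromosome 13, 93303757 to 93405129), which encodes both long Homer forms and the short, activity-induced Homer1a, was at 47.6, 36.8 and 46.7 CPM in CELF2 RIP, 48.9, 49.7 and 35.3 in the IgG RIP and 42.7, 44.3 and 38.4 in the input. The 3 groups overlapped throughout. Its log2 fold change was −0.03 (SE 0.16, edgeR FDR 0.892) over IgG RIP and 0.06 (SE 0.16, edgeR FDR 0.752) over input. Both signs turned under other scalings or with single libraries left out, so *Homer1* has no direction here.

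**Figure D2:**
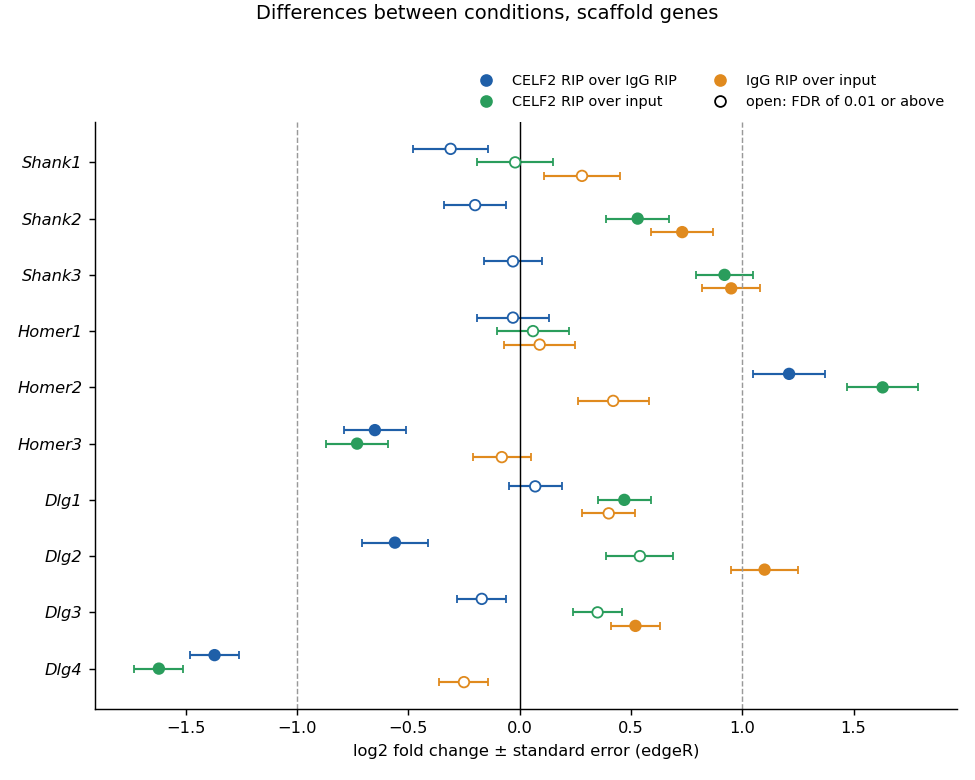
Log2 fold change with its standard error (horizontal axis) for each scaffold gene in the 3 comparisons from the edgeR fit. Filled points have an FDR under 0.01, open points do not, and dashed lines mark 2-fold. *Homer2* lies to the right of the 2-fold line against IgG RIP and input (1.21 and 1.63), *Dlg4* to the left of it (−1.37 and −1.62), and *Dlg2* is farthest right for IgG RIP over input (1.10).

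*Dlg4* (Gene ID 13385, chromosome 11, 70017203 to 70045535) encodes PSD-95, the most abundant scaffold of the mature postsynaptic density, which holds AMPA and NMDA receptors. It stood at 111, 90.5 and 100 CPM in CELF2 RIP, at 250, 263 and 266 in IgG RIP and at 307, 284 and 338 in input. The groups did not overlap, and the highest CELF2 RIP library was below every control, an arrangement found for 19.9% of all genes. The level in CELF2 RIP was 0.387 of that in IgG RIP (log2 fold change −1.37, SE 0.11, edgeR FDR 1.15e-05) and 0.325 of that in input (log2 fold change −1.62, SE 0.11, edgeR FDR 3.04e-06). These lay at the 11.4 and 10.6 percentiles of all genes. IgG RIP over input was −0.25 (SE 0.11, edgeR FDR 0.0915). The fall of *Dlg4* kept its call over both controls in each of 9 fits with 1 library omitted.

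*Dlg2* (chromosome 7, 90476188 to 92449246), which encodes PSD-93, was above input in both kinds of RIP when all its rows were summed, and below it in both with the RefSeq curated rows alone. It was at 293, 320 and 331 CPM in CELF2 RIP, at 480, 559 and 354 in IgG RIP and at 224, 210 and 216 in input. All 3 CELF2 RIP libraries lay between the highest input and the lowest IgG RIP library. IgG RIP was 2.14-fold above input (log2 fold change 1.10, SE 0.15, edgeR FDR 0.000577), the largest difference of that comparison among the 10 genes, but with the curated rows it turned to −2.22 (edgeR FDR 0.0447). CELF2 RIP was at 0.678 of IgG RIP (log2 fold change −0.56, SE 0.15, edgeR FDR 0.00942) and 1.45-fold above input (log2 fold change 0.54, SE 0.15, edgeR FDR 0.0105, which does not pass). The call against IgG RIP was fragile: it held in 2 of 9 fits with 1 library omitted, and with IgG RIP replicate 3 as the only IgG library the log2 fold change was −0.28. With the curated rows alone, which held 21.2% of the *Dlg2* counts, the sign of CELF2 RIP over IgG RIP turned to 2.01 (edgeR FDR 0.0394) and that of CELF2 RIP over input to −0.21 (edgeR FDR 0.82).

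*Dlg1* (chromosome 16, 31663443 to 31873356), which encodes SAP97, had 41.7, 44.0 and 45.2 CPM in CELF2 RIP, 43.8, 43.9 and 37.0 in the IgG RIP and 32.2, 31.1 and 31.1 in the input. Both RIPs lay above every input library and overlapped each other. The share of all genes with both RIPs above every input library was not taken, for *Dlg1* or for *Dlg3* and *Shank3* below. CELF2 RIP over input was 0.47 (log2, SE 0.12, edgeR FDR 0.00532), IgG RIP over input 0.40 (edgeR FDR 0.0201) and CELF2 RIP over IgG RIP 0.07 (edgeR FDR 0.638). The last value was negative under total-count and upper-quartile scaling, and the first lost its call in 5 of 9 fits with 1 library omitted. In 11 other settings, CELF2 RIP over input kept its call in 2, with log2 fold changes down to 0.01.

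*Dlg3* (chromosome X, 100767411 to 100818410), which encodes SAP102, the Dlg protein that prevails at young synapses, had 107, 117 and 112 CPM in CELF2 RIP, 125, 111 and 142 in the IgG RIP and 90.4, 85.3 and 87.9 in the input. Again both RIPs were above every input library. Its log2 fold change was −0.17 (edgeR FDR 0.221) over IgG RIP, 0.35 (edgeR FDR 0.0207) over input and 0.52 (SE 0.11, edgeR FDR 0.00514) for IgG RIP over input. The last of these calls held in 5 of 9 fits with 1 library omitted. With scaling by total counts and by the upper quartile *Dlg3* was called lower than IgG RIP (log2 fold changes −0.54 and −0.43, edgeR FDR 0.00153 and 0.00618). Of the 4 Dlg genes, *Dlg4* alone had CELF2 RIP libraries below input.

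*Shank3* (chromosome 15, 89493013 to 89560261), deleted in Phelan-McDermid syndrome in humans, was higher in both RIPs than in input by nearly the same amount. It stood at 194, 245 and 210 CPM in CELF2 RIP, at 222, 237 and 203 in IgG RIP and at 129, 116 and 97.8 in input. The RIPs overlapped, and all 6 RIP libraries were above all 3 input libraries. CELF2 RIP was 1.89-fold above input (log2 fold change 0.92, SE 0.13, edgeR FDR 0.000219) and IgG RIP was 1.93-fold above it (0.95, SE 0.13, edgeR FDR 0.000644). Between the RIPs the log2 fold change was −0.03 (SE 0.13, edgeR FDR 0.872). The call of CELF2 RIP over input was lost with scaling by total counts (log2 fold change 0.45, edgeR FDR 0.0124) and with curated rows alone (edgeR FDR 0.0799). That of IgG RIP over input was lost with curated rows (0.32, edgeR FDR 0.564) and with IgG RIP replicate 3 as the only IgG library (edgeR FDR 0.0125).

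*Shank2* (chromosome 7, 143978077 to 144426043) followed the same order at a smaller size. CELF2 RIP had 276, 276 and 321 CPM, IgG RIP 391, 343 and 269, and input 204, 191 and 210. CELF2 RIP was 1.44-fold above input (log2 fold change 0.53, SE 0.14, edgeR FDR 0.00767) and IgG RIP 1.66-fold above it (0.73, SE 0.14, edgeR FDR 0.00291), whereas CELF2 RIP over IgG RIP was −0.20 (edgeR FDR 0.251). The call of CELF2 RIP over input depended on the setting and held in 2 of 9 fits with 1 library omitted, and that of IgG RIP over input held in 4 of 9.

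*Shank1* (chromosome 7, 44308916 to 44360094), whose mRNA is known from dendrites of adult neurons, had 491, 426 and 582 CPM in CELF2 RIP, 723, 652 and 479 in the IgG RIP and 496, 454 and 572 in the input. The groups overlapped. The log2 fold change was −0.31 (SE 0.17, edgeR FDR 0.156) over IgG RIP and −0.02 (SE 0.17, edgeR FDR 0.918) over input, and 0.28 (edgeR FDR 0.211) for IgG RIP over input. Between the 2 kinds of RIP no *Shank* gene was called with TMM scaling in edgeR at an FDR under 0.01 or by DESeq2. In the main fit of all 9 libraries, none had an unadjusted p under 0.05. Without IgG RIP replicate 3, *Shank1* was at −0.46 (edgeR FDR 0.0238) and *Shank2* at −0.34 (edgeR FDR 0.0294). With scaling by total counts, *Shank1* (log2 fold change −0.67, edgeR FDR 0.0093) and *Shank2* (−0.57, edgeR FDR 0.00697) were called lower in CELF2 RIP than in IgG RIP.

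**Figure D3:**
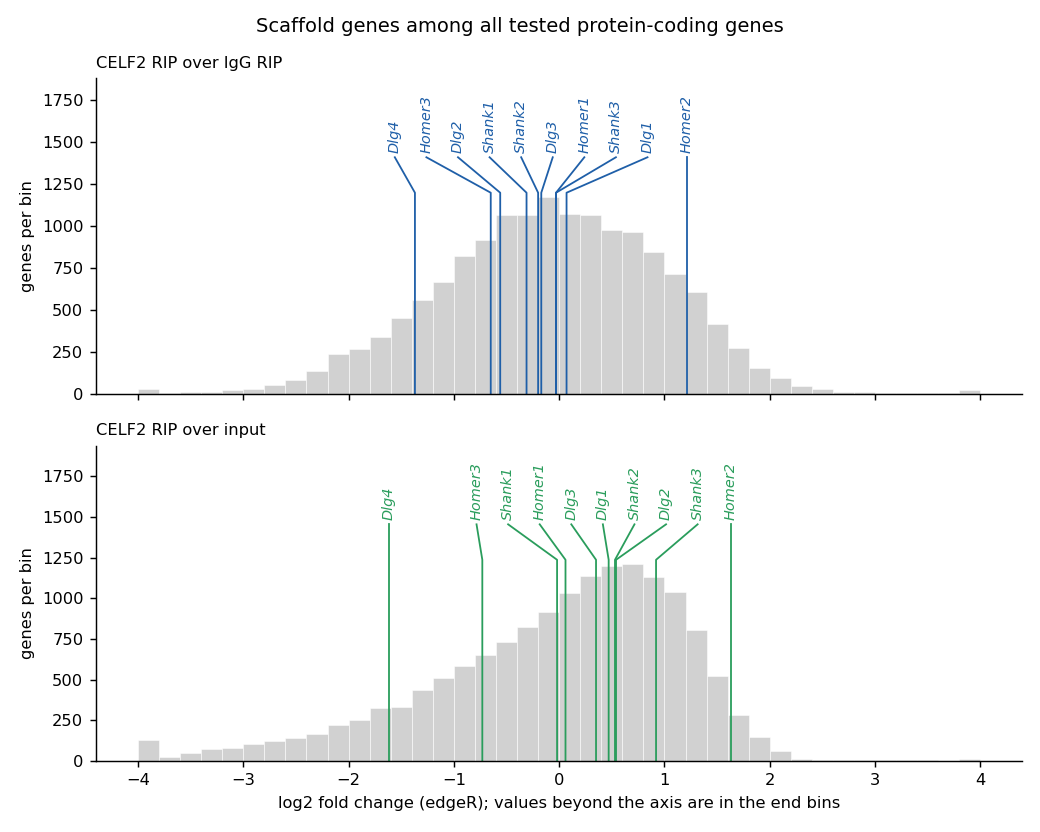
Histograms of the log2 fold change of all 15267 tested genes (grey, genes per bin) in CELF2 RIP over IgG RIP and over input, with the scaffold genes marked by lines. *Homer2* (1.21 and 1.63) and *Dlg4* (−1.37 and −1.62) lie toward the ends, with 8 genes between them in both comparisons.

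Because the 3 families consist of paralogs, ratios of 2 members within a library were also taken, which do not depend on the scaling between libraries. In 3 against 3 libraries the smallest p an exact permutation test can give is 0.1, so no ratio could pass 0.05, and values are described by whether the groups overlap. The log2 ratio of *Homer2* to *Homer3* was 2.98, 3.91 and 3.43 in CELF2 RIP, 1.47, 1.56 and 1.81 in the IgG RIP and 1.19, 1.15 and 1.0 in the input. The CELF2 RIP libraries were above all controls. The mean difference was 1.82 against IgG RIP (2-sided exact permutation p = 0.1, adjusted 0.171 over 12 pairs) and 2.33 against input (2-sided exact permutation p = 0.1, adjusted 0.1). Within the Dlg family, the log2 ratio of *Dlg3* to *Dlg4* was −0.06, 0.37 and 0.16 in CELF2 RIP, −1.01, −1.24 and −0.91 in the IgG RIP and −1.76, −1.73 and −1.94 in the input. It was higher in each CELF2 RIP library than in the 6 controls. The *Dlg2* to *Dlg4* ratio was 1.65 ± 0.22 (SD, n = 3) in CELF2 RIP, 0.81 ± 0.36 in IgG RIP and −0.51 ± 0.12 in input. Over the 12 pairs, the groups did not overlap in 7 against IgG RIP (all 3 Homer pairs, and *Dlg1* to *Dlg2*, *Dlg1* to *Dlg4*, *Dlg2* to *Dlg4* and *Dlg3* to *Dlg4*) and in all 12 against input. Of all pairs of tested genes, 52.2% and 69.3% did not overlap in these comparisons. Not overlapping can go with a small difference, as for *Dlg1* to *Dlg2* against input (−0.06). The 3 Shank pairs overlapped between CELF2 RIP and IgG RIP.

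**Figure D4:**
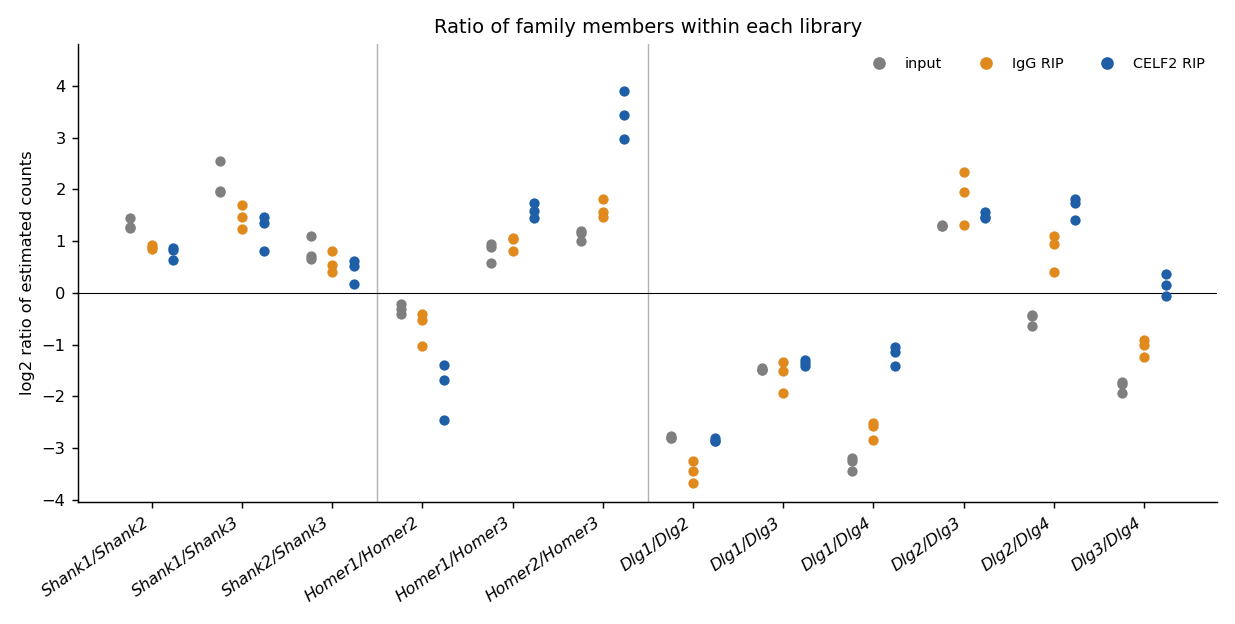
Log2 ratio of the estimated counts of 2 family members within each library (vertical axis) for the 12 pairs. Each point is a library of input, IgG RIP or CELF2 RIP. The *Homer2* to *Homer3* and *Dlg3* to *Dlg4* ratios are highest in the 3 CELF2 RIP libraries.

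The rows of one gene are its RefSeq transcripts, and the split of reads among them is an estimate by kallisto whose error is not part of the counts. The 10 genes had 123 rows, of which 29 were curated (accessions NM_ and NR_) and 94 predicted (XM_ and XR_). Of these, 27 were at 0 in every library and 78 passed the filter and held 99.9% of the counts of the 10 genes. Rows varied far more between replicates than gene sums did, with a median coefficient of variation of 0.79 for rows beside a common one of 0.221 for genes. Of the 78 rows, 1 was higher and 2 were lower in CELF2 RIP than in IgG RIP, beside 3.91% and 3.3% of all 39137 rows tested. Against input 0 were higher and 2 lower, beside 1.49% and 4.64%, and for IgG RIP over input 2 were higher and 2 lower, beside 0.928% and 1.92% (all edgeR, FDR under 0.01). For the count of 0, 4 rows had an unadjusted p under 0.05 and DESeq2 called 2. Every row called in these 3 comparisons of level belonged to *Dlg2* or *Dlg4*. Of the 31 Shank and 11 Homer rows edgeR called 0 in them. Against IgG RIP, though, 6 Shank and 6 Homer rows had an unadjusted p under 0.05 and DESeq2 called 3 and 4.

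The rows of *Dlg2* were split differently in the IgG RIP. Row XM_006507781.3 had 31.0, 36.4 and 30 CPM in CELF2 RIP and 29.1, 25 and 33.4 in input, and it was at 0 in all 3 IgG RIP libraries. That is 11.7%, 14% and 10.8% of the *Dlg2* counts in CELF2 RIP and 10.8%, 9.97% and 13.1% in input. Set against 3 counts per library, its estimated counts were 139-fold higher in CELF2 RIP and 125-fold higher in input than in IgG RIP (edgeR FDR 0.000343 and 0.00148). The error of the split among rows is not part of these values, so they are not lower bounds on the difference. CELF2 RIP over input was 0.15 (log2, edgeR FDR 0.805). Row XM_006507786.3 made up 48.1%, 49.9% and 48.1% of *Dlg2* in IgG RIP, but 18.5%, 25.9% and 20.0% in CELF2 RIP and 13.3%, 16% and 13.2% in input. Its log2 fold change was −1.98 (SE 0.20, edgeR FDR 0.0011) for CELF2 RIP over IgG RIP and 2.63 (SE 0.21, edgeR FDR 0.00167) for IgG RIP over input. Row XM_006507783.3 also rose in IgG RIP over input (log2 fold change 2.81, SE 0.41, edgeR FDR 0.00732). The curated row NM_011807.3 held 19.6%, 11.7% and 21.6% of *Dlg2* in CELF2 RIP, 1.37%, 0% and 7.94% in the IgG RIP and 30.8%, 27.9% and 29.2% in the input. For these 4 rows the mean share in CELF2 RIP was closer to input than to IgG RIP, but this did not hold for every row. It was closer to IgG RIP for XM_006507779.3 (8.72% in CELF2 RIP, 10.5% in IgG RIP and 12.1% in input), XM_006507780.3 (6.61%, 4.97% and 3.31%) and XM_006507784.3 (3.72%, 3.01% and 5.7%). In CELF2 RIP replicate 2 alone, the shares of NM_011807.3 (11.7%) and XM_006507783.3 (16.5%) were closer to the IgG RIP means (3.1% and 21.7%) than to the input means (29.3% and 5.55%).

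For *Dlg4*, each of the 3 main rows had a lower mean in CELF2 RIP than in either control. Row NM_007864.3 was at 24.5, 22.7 and 17.1 CPM in CELF2 RIP, 49.4, 50.6 and 45.6 in the IgG RIP and 115, 109 and 138 in the input. It fell over IgG RIP (log2 fold change −1.18, SE 0.17, edgeR FDR 0.00354) and over input (−2.50, SE 0.18, edgeR FDR 0.000207), and IgG RIP was also below input (−1.32, SE 0.17, edgeR FDR 0.00543). Row XM_006532148.2 was lower than input as well (log2 fold change −2.38, SE 0.33, edgeR FDR 0.00319) and stood at −1.08 over IgG RIP (edgeR FDR 0.0584). With the replicate number as a block, NM_007864.3 stayed called over input (edgeR FDR 0.0042) and XM_006532148.2 did not (edgeR FDR 0.0224), so 1 row was lower than input instead of 2. Row XM_006532147.3 was at −2.11 over IgG RIP (edgeR FDR 0.0236) and −1.38 over input (edgeR FDR 0.105).

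**Figure D5:**
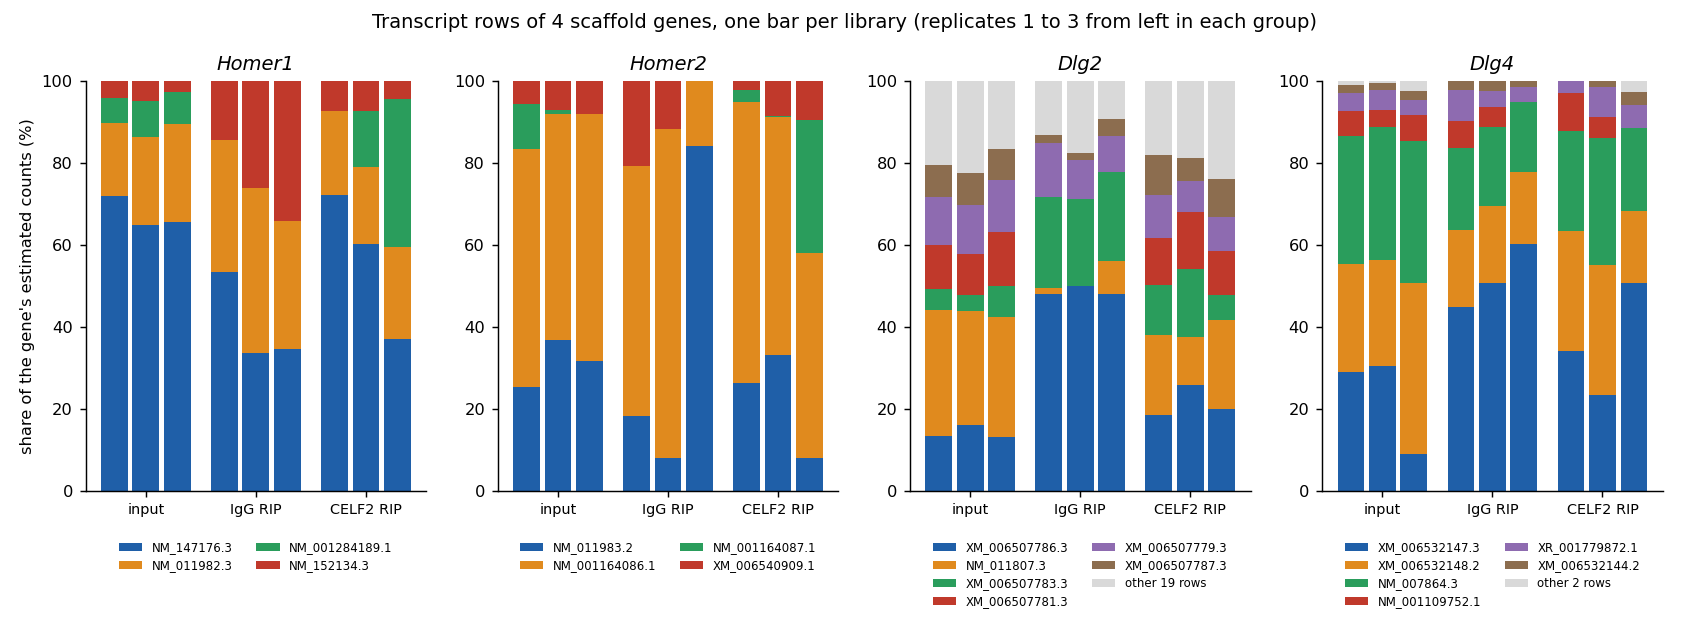
Share of the estimated counts of *Homer1*, *Homer2*, *Dlg2* and *Dlg4* that each transcript row held (vertical axis, percent), with one stacked bar per library. In *Dlg2*, row XM_006507781.3 is missing from the 3 IgG RIP bars, where row XM_006507786.3 takes 48.1% to 49.9%.

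The rows of *Homer2* moved between replicates of the same group. Row NM_001164086.1 held 68.6%, 57.9% and 50.1% in CELF2 RIP, 60.9%, 80.1% and 15.8% in the IgG RIP and 58.1%, 55.2% and 60.4% in the input. Row NM_011983.2 took 84.2% in IgG RIP replicate 3 and 8.09% in IgG RIP replicate 2. The rise of the *Homer2* sum therefore could not be assigned to a row, and its main row had a log2 fold change of 1.14 over each control (edgeR FDR 0.175 and 0.194). In *Homer1*, row NM_001284189.1 was at 0 in all IgG RIP libraries and in CELF2 RIP replicate 1, at 4.05 and 14.2 CPM in CELF2 RIP replicates 2 and 3 and at 3.16, 4.68 and 3.65 in input. Row NM_152134.3 held 14.3%, 26.1% and 34.1% of *Homer1* in IgG RIP, 7.39%, 7.32% and 4.41% in CELF2 RIP and 4.10%, 4.83% and 2.57% in input.

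A test of row usage asks whether a row departs from the rest of its gene between conditions. Of the 78 rows, 2 had changed usage between CELF2 RIP and IgG RIP at an FDR under 0.01 in edgeR, beside 0.717% of all 32896 rows of genes with more than 1 tested row. They were XM_006507781.3 of *Dlg2* (FDR 6.53e-08) and NM_001284189.1 of *Homer1* (FDR 0.00421), both at 0 in the IgG RIP libraries. Between CELF2 RIP and input edgeR called 0, beside 0.502% of all rows, with 2 at an unadjusted p under 0.05. In simulated counts with the spread of each row, the test called 0 of 196 rows raised 8-fold in CELF2 RIP over IgG RIP. The raised rows lay in genes with fewer tested rows than *Shank1*, *Shank2* and *Dlg2* had. Rows without a call can therefore still differ in usage.

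Other scaffold genes were listed by name for comparison. Of 28 further proteins of the excitatory postsynaptic density, 4 were higher and 7 lower in CELF2 RIP than in IgG RIP (median log2 fold change −0.10), 13 were higher and 2 lower than input (0.45), and 15 passed in IgG RIP over input, all of them higher (0.68). Of all tested genes, 22.9% were higher and 19.2% lower than IgG RIP, and 26.8% and 20.1% than input. In IgG RIP over input, 12% of all genes were higher and 11.3% lower. Among the guanylate kinase-associated proteins that join Dlg to Shank, *Dlgap4* was higher than IgG RIP (log2 fold change 0.69, edgeR FDR 0.00205) and *Dlgap3* lower (−0.46, edgeR FDR 0.0094). *Dlgap1* (0.07) and *Dlgap2* (−0.10) did not pass. *Akap5*, which encodes an anchor of kinases and phosphatases at PSD-95, rose over IgG RIP (log2 fold change 0.94, edgeR FDR 0.00165) and over input (1.10, edgeR FDR 0.000513). None of the 28 was 2-fold above both controls, where 7.58% of all genes were, and 1 was 2-fold below both, where 9.54% were. That gene was *Arc*, an activity-induced gene whose mRNA travels into dendrites. It had a mean of 2.12 CPM in CELF2 RIP, 4.30 in IgG RIP and 4.81 in input (log2 fold changes −1.02 and −1.18, edgeR FDR 0.00738 and 0.00258). The 5 genes named here besides *Arc* were picked after their values were seen.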

How the data were processed

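The labels describe 3 biological replicates each of input, IgG RIP and CELF2 RIP. RNA was depleted of rRNA and made into directional libraries. Per the labels, reads were checked with FastQC 0.11.9, trimmed with fastp 0.23.4 and cleared of rRNA with Ribodetector 0.3.1, and kallisto 0.51.1 gave the estimated counts per transcript that the authors deposited. The submitters' notes also name edgeR 4.4.0 and DESeq2 1.46.0 and the build mm10. The paper names an Ensembl transcriptome, whereas the rows carry RefSeq accessions, so the index used is uncertain.

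Rows were matched to genes through a RefSeq table of GRCm38.p6, from which coordinates also come. Of 107384 rows 86722 matched a gene, and 68249 belonged to 21254 protein-coding genes. Counts were summed per gene and rounded. Genes and rows that reached 0.5 CPM in 3 or more libraries were kept, scaled by TMM and tested in edgeR 4.0.16 (R 4.3.3) with the quasi-likelihood test in one fit of 9 libraries, with Benjamini-Hochberg adjustment over all genes or rows. Row usage was tested with diffSpliceDGE. For within-library ratios 0.5 counts were added to each sum. The tests were checked on simulated counts. With the spread of each row kept, the row usage test called 0 of 196 rows raised 8-fold in CELF2 RIP over IgG RIP. It called 20% of such rows at a coefficient of variation of 0.4 in every row, and 99.5% at 0.1. The row usage test thus had little power at the spread of the raised rows. Those rows lay in genes with fewer tested rows than *Shank1* (10), *Shank2* (15) and *Dlg2* (15), so power in these 3 genes was not measured.

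The members and gene lists were chosen with earlier results of these data known. The genes named are all 10 members, their rows past the filter, genes of the other lists at 2-fold against both controls, and the 3 genes nearest to the highest and the lowest member. *Dlgap1* to *Dlgap4* and *Akap5* fall outside this rule and were picked after their values were seen. Same-numbered libraries were compared by the correlation, over 11534 genes, of their deviations from group means. It was 0.185, 0.122 and 0.213 between CELF2 RIP and input, and it lay between −0.07 and 0.087 for the other pairs. The use of the number as a block between CELF2 RIP and input rests on these weak correlations, which do not establish a pairing. Alternatives covered scaling, filters, DESeq2 1.42.0, glmTreat against 2-fold, curated rows, the replicate block, leaving out each library, and, chosen after seeing the data, IgG RIP replicate 3 as the only IgG library. The range of depth in each group is given with the results. Over all genes together, counting error was small beside the spread between libraries. This was not shown gene by gene, and *Homer3* had only 199, 175 and 156 counts in CELF2 RIP.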

Additional observations from a re-analysis of the deposited data

How the results depend on the processing

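Of 600 values of the 10 genes under alternatives, 484 kept their direction and side of the threshold, 72 lost their call, 11 gained one and 33 changed sign. *Dlg4* kept its call over IgG RIP and input in all 20 alternatives. The causes of the changes below were not tested, except that leaving out libraries leaves fewer samples and the curated rows fewer counts.

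Against IgG RIP (1 gene higher, 3 lower), glmTreat gave 0 higher and 1 lower, total counts 6 lower, and the 6 libraries alone and IgG RIP replicate 3 alone 1 lower each. Leaving out 1 library gave 1 to 3 lower. Against input (4 higher, 2 lower), DESeq2 size factors, the upper quartile, no filter, the 6 libraries alone and the replicate block gave 2 higher, total counts, glmTreat and curated rows gave 1, leaving out 1 library gave 2 to 6, and glmTreat gave 1 lower. For IgG RIP over input (4 higher), glmTreat gave 0, curated rows 1, IgG RIP replicate 3 alone 2 and leaving out 1 library 2 to 5. The count 2-fold above both controls (1) was 0 under total counts, the upper quartile and glmTreat, and 0 to 1 with 1 library left out. The count 2-fold below both was 2 under total counts.

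Signs turned as follows. Over IgG RIP, *Shank2* was 0.01 and *Homer1* 0.20 with IgG RIP replicate 3 alone, *Shank3* 0.55 and *Dlg2* 2.01 with curated rows, and *Dlg1* −0.30 with total counts, −0.19 with the upper quartile, −0.02 with no filter and −0.01 with a 5 CPM filter. Over input, *Homer1* was −0.07 with DESeq2 and with its size factors, −0.39 with total counts, −0.17 with the upper quartile, −0.05 with no filter, −0.16 with the 6 libraries alone and −0.04 with IgG RIP replicate 3 alone, *Dlg2* was −0.21 with curated rows and *Dlg3* −0.12 with total counts. For IgG RIP over input, curated rows gave −0.29 for *Shank1*, −0.36 for *Dlg1* and −2.22 for *Dlg2*, and IgG RIP replicate 3 alone gave −0.08 for *Shank1* and −0.24 for *Homer1*.
With 1 library left out, values ranged from −0.03 to 0.12 for *Dlg1* over IgG RIP, from −0.18 to 0.08 for *Homer1* over IgG RIP, from −0.13 to 0.04 for *Shank3* over IgG RIP, from 0.00 to 0.18 for *Homer1* over input and from −0.21 to 0.08 for *Shank1* over input.

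For transcript rows the replicate block gave 1 lower than IgG RIP, 1 lower than input, 0 higher and 0 lower in IgG RIP than input, and 1 with changed usage. DESeq2 gave 4 higher and 12 lower than IgG RIP, 2 higher and 4 lower than input, and 6 higher and 4 lower in IgG RIP than input. With 1 library left out, 1 to 2 rows were higher and 1 to 3 lower than IgG RIP, 0 to 1 higher and 1 to 3 lower than input, 0 to 4 higher and 0 to 2 lower in IgG RIP than input, and 1 to 3 had changed usage. The ratios of gene sums turned with curated rows for *Shank1* to *Shank2* (0.34 against IgG RIP), *Dlg1* to *Dlg2* (−1.62 against IgG RIP, 0.71 against input) and *Dlg2* to *Dlg3* (2.88 and −0.60). Apart from *Shank2* and *Dlg1*, the replicate block changed no call of a gene between CELF2 RIP and input. In the comparisons that include IgG RIP, the blocked edgeR FDR was 0.0184 for *Dlg2* over IgG RIP and 0.0123 for *Dlg3* in IgG RIP over input. For rows it was 0.0208 for NM_007864.3 over IgG RIP, and in IgG RIP over input 0.0311 for NM_007864.3, 0.0167 for XM_006507781.3, 0.0124 for XM_006507786.3 and 0.0397 for XM_006507783.3, so none of these 5 row calls passed.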

Other observations

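Inhibitory postsynaptic scaffolds split in both directions. Of 6 such genes, 2 were higher and 2 lower in CELF2 RIP than in IgG RIP (median log2 fold change 0.06), 2 were higher and 2 lower than input (0.20), and 1 was higher in IgG RIP than in input (0.17). The shares of all genes were 22.9% higher and 19.2% lower than IgG RIP, 26.8% and 20.1% than input, and 12% higher in IgG RIP over input. *Lhfpl4*, which encodes a partner of GABA-A receptors and neuroligin-2, was at 754 ± 323 CPM (SD, n = 3) in CELF2 RIP, 227 ± 23.2 in IgG RIP and 197 ± 15 in input (log2 fold changes 1.73 and 1.94, edgeR FDR 0.000258 and 0.000113). *Gphn*, which encodes gephyrin, the central scaffold of inhibitory synapses, was at 20.8 ± 0.559, 61.0 ± 10.3 and 53.4 ± 0.918 CPM in the same order (log2 fold changes −1.55 and −1.36, edgeR FDR 1.48e-05 and 2.32e-05).

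Of 17 presynaptic active zone scaffold genes, 4 were higher and 1 lower than IgG RIP (median log2 fold change −0.07), 10 were higher and 1 lower than input (0.64), and 7 were higher in IgG RIP than in input (0.47). Beside these stand 22.9% and 19.2%, 26.8% and 20.1%, and 12% of all genes in the same order. The paralogs *Lin7c* and *Lin7b*, whose proteins form a complex with CASK and Mint, lay on opposite sides. *Lin7c* had a mean of 222 CPM in CELF2 RIP, 85.5 in IgG RIP and 102 in input (log2 fold changes 1.38 and 1.12, edgeR FDR 2.99e-05 and 7.81e-05). *Lin7b* had 1.85, 6.01 and 5.68 CPM (log2 fold changes −1.70 and −1.62, edgeR FDR 0.000762 and 0.000832).

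The genes whose pattern over the 9 libraries was nearest to that of *Homer2*, by the root mean square difference of centred log2 CPM, were *Klhl12* (0.0364), *Cbl* (0.0662) and *Usp31* (0.0689). Those nearest to *Dlg4* were *Ppp1r15a* (0.0673), *Grpel1* (0.0792) and *Stoml2* (0.0805). The points share depth and scaling, so these are descriptions.

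Summed markers of other cell types ranged as follows. Inhibitory neuron genes (6) were at 587 to 725 CPM in CELF2 RIP, 330 to 382 in IgG RIP and 462 to 479 in input. Astrocyte genes (5) were at 520 to 896, 434 to 489 and 726 to 938, and oligodendrocyte precursor genes (5) at 547 to 655, 546 to 573 and 489 to 557. Microglia genes (7, of which *P2ry12* was under the filter) were at 95.5 to 131, 68.1 to 95.4 and 164 to 209, and endothelial genes (5) at 162 to 237, 137 to 318 and 173 to 278. Sums can differ from single markers. Of the oligodendrocyte precursor genes 1 was higher and 2 lower than IgG RIP (median log2 fold change −0.56), and 1 and 3 than input (−0.82). Of the tested microglia genes 1 was higher and 3 lower than IgG RIP (−1.06), and 2 and 4 than input (−1.91). Against IgG RIP, 4 excitatory neuron genes were higher and 0 lower, 4 and 0 inhibitory neuron genes, and 0 and 3 radial glia genes. Astrocyte genes had 1 and 1, and endothelial genes 0 and 1. Against input the counts were 4 and 0, 4 and 1, 0 and 3, 0 and 1, and 0 and 1 in that order. The shares of all tested genes were 22.9% higher and 19.2% lower than IgG RIP, and 26.8% and 20.1% than input. The part of all these markers in the values above was not tested.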
